A study of Mus musculus with 6 samples.

Results

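The genes described here are the oestrogen receptors (Esr1, Esr2 and Gper1), target genes of these receptors (Pgr, Greb1, Igfbp4 and Nrip1) and the p160 coactivators (Ncoa1, Ncoa2 and Ncoa3). All were measured in cultured mouse embryonic fibroblasts with or without a Cre recombinase that targets part of Kansl1. They were found by their symbols in a table of expression values, which held all 10 of them among 26898 genes. The group was selected on the KO and WT values of Esr1, which had the highest log2 fold change of all genes tested, so the level of Esr1 is given as a description and without a test. The other members were named for their known relation to the receptor.

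RNA sequencing was done on primary MEFs (fibroblasts taken directly from embryos) of strain C57BL/6 at passage 3, with 3 samples in each of 2 groups. WT cells (samples WT 4, WT 5 and WT 8) had the genotype Kansl1fl/fl, in which recombination sites flank part of Kansl1 on both alleles. KO cells (samples KO 3, KO 7 and KO 10) had the same alleles and the transgene CAG-cre, a Cre recombinase that acts after tamoxifen and is driven by the CAG promoter, which is active in most cell types. All 6 cultures, WT included, received 1 μM tamoxifen for 48 h. The sample labels give 10% serum in the medium, and the methods of the study state a larger share for MEFs. Cre-positive cells with intact Kansl1 were not analysed here, so the effects of Kansl1 loss and of the transgene cannot be told apart.

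Oestrogen receptors α and β, the products of Esr1 and Esr2, are nuclear receptors that bind oestrogen, pair up on DNA and recruit coactivators that open chromatin and start transcription. Gper1 encodes a membrane receptor reported to respond to oestrogen. Tamoxifen itself is a ligand of receptors α and β, acting on them as an antagonist or a partial agonist depending on the tissue. Cre recombinases made inducible by tamoxifen are fusions of Cre with a mutated ligand-binding domain of an oestrogen receptor, and in the widely distributed CAG-cre line of this type the domain is that of the mouse receptor, so the messenger RNA of such a transgene contains Esr1 coding sequence.

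Expression is given in TPM, which is reads per unit of gene length with every sample set to an equal sum, and as reads, which were recovered from the TPM values and rounded to whole numbers. Values under 2000 reads were checked to be whole, and the KO values of Esr1 lie above that. The samples held 17654338 to 27716119 recovered reads, with KO 3 the shallowest and KO 7 the deepest. Kansl1 itself measured 28.5, 26.7 and 24.4 TPM in the WT samples and 13.7, 15.8 and 14.4 TPM in the KO samples, so that the KO mean was 55.1% of the WT mean (log2 fold change -0.82, limma adjusted p = 0.000859). The fall was thus incomplete at the level of the whole gene. These values cover all exons together, so loss of the flanked part cannot be read from them. All 10 fibroblast markers were above 1 TPM in at least 1 sample. KO 7 stood apart by sex markers, with Xist at 117 TPM and Ddx3y at 0, whereas the other 5 samples had Xist at no more than 0.0230 TPM and Ddx3y between 49.6 and 63.2 TPM.

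Reads assigned to Esr1, the gene of oestrogen receptor α, were near the limit of detection in WT MEFs and plentiful in KO MEFs. The gene (ENSMUSG00000019768.16) lies at chr10:4611593-5005614 on the plus strand of GRCm38 (mm10), and none of its exons overlaps an exon of another annotated gene. Its level was 0.154 TPM in WT 4, 0.192 TPM in WT 5 and 0.154 TPM in WT 8, from 17, 23 and 20 reads. In the KO samples it was 22.3 TPM in KO 3, 23.3 TPM in KO 7 and 20.8 TPM in KO 10, from 2219, 3079 and 2541 reads. The groups were far apart, and the samples of each group lay close together, KO 7 with its different sex markers included. The WT mean was 0.167 ± 0.0220 TPM and the KO mean 22.1 ± 1.23 TPM (SD, n = 3 each), 133 times as high. In log2(TPM + 1), where the added 1 compresses the change of a gene this low in WT, the difference was 4.31 with an SE of 0.13. The coefficient of variation over the samples was 13.2% in WT and 5.53% in KO.

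The KO samples differ from the WT samples by the CAG-cre transgene as well as by Kansl1, and the table gives 1 value per gene over all of its exons. Reads from the endogenous Esr1 gene and from the receptor domain of a Cre fusion therefore cannot be told apart in these values. Which exons the reads came from was not tested.

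**Figure D1:**
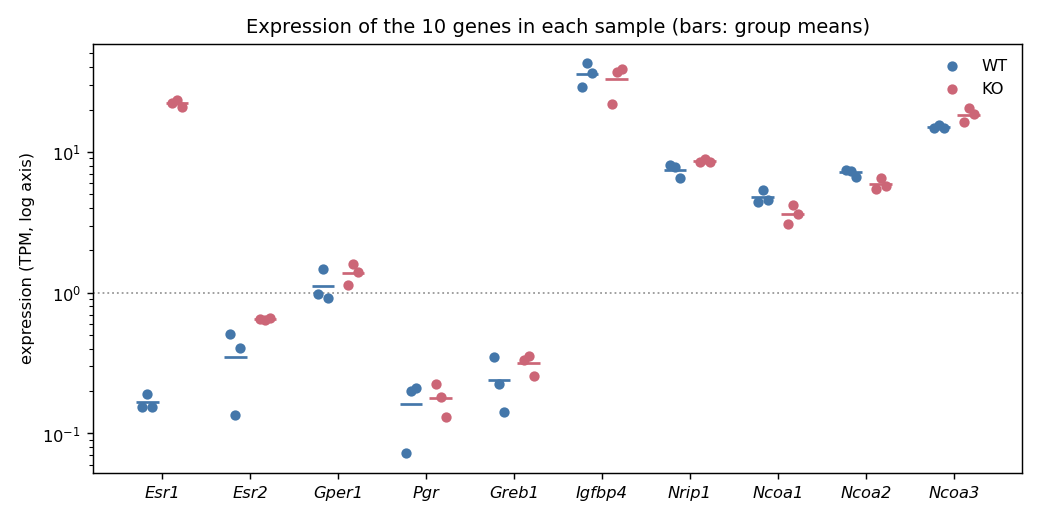
Expression of the 10 genes in TPM on a log axis, with 1 point per sample (WT blue, KO red), a short bar at each group mean and a dotted line at 1 TPM. The 3 KO values of Esr1, between 20.8 and 23.3 TPM, lie far above its WT values, while for the other genes the points of both groups lie within the same range or close to it.

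Within each library, Esr1 moved from the lower part of the distribution of genes to the upper part. In the WT samples, 28.1%, 30.3% and 28.3% of all genes in the table had a lower TPM than Esr1. In the KO samples, the shares were 83.4%, 81.8% and 81.2%. Among 37 nuclear receptors, Esr1 ranked at position 31 by its WT mean and at position 11 by its KO mean. Its neighbours in the KO order were Nr1d1, a receptor of the circadian clock, at 22.5 ± 0.463 TPM, and Nr2f6, an orphan receptor, at 22.1 ± 2.51 TPM (SD, n = 3 each). These levels did not differ from that of Esr1 beyond the spread of the samples. The glucocorticoid receptor gene Nr3c1, at 29.9 ± 2.40 TPM in KO, was above it. The exons of Nr1d1 and Nr2f6 share 263 and 1622 bases with those of the opposite-strand genes Thra and Ocel1. TPM divides the Esr1 reads by all 13661 bases of its exons, and how much of that length they cover was not tested. The percentiles, ranks and comparisons with other genes thus describe values assigned to the whole gene.

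**Figure D2:**
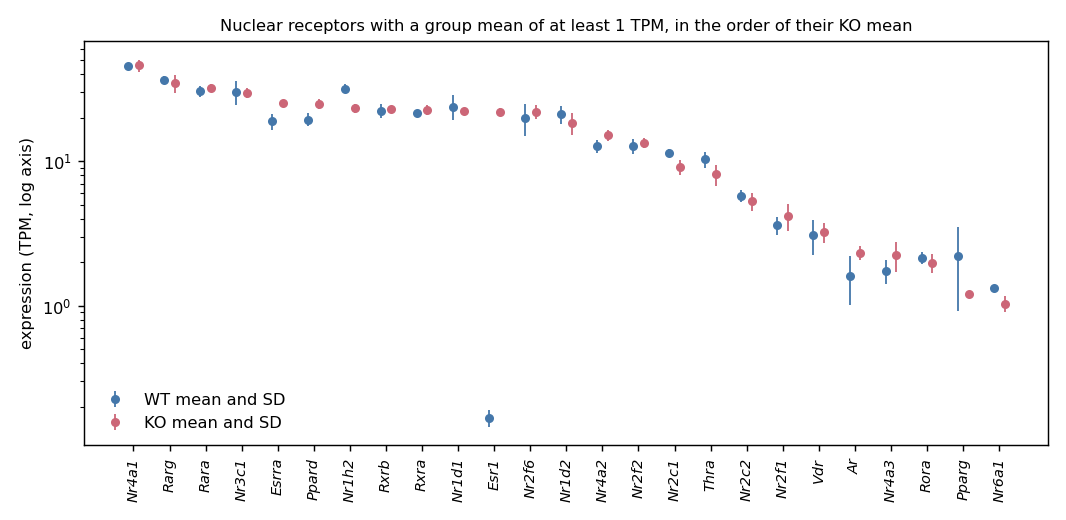
Mean and SD over 3 samples in TPM on a log axis for the 25 nuclear receptors that reached a mean of 1 TPM in either group (WT blue, KO red), ordered by the KO mean. Esr1 sits at 22.1 TPM in KO among receptors such as Nr1d1 and Nr2f6, and its WT point at 0.167 TPM lies below every other point plotted.

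The other oestrogen receptors were weakly expressed in both groups. Esr2, which encodes oestrogen receptor β (chr12:76120419-76177259, minus strand), measured 0.513, 0.135 and 0.407 TPM in WT 4, WT 5 and WT 8 and 0.653, 0.644 and 0.665 TPM in KO 3, KO 7 and KO 10. These values rest on 4 to 14 reads in WT and 16 to 21 reads in KO. Every KO sample was above every WT sample, and WT 5 was the lowest. The means were 0.352 ± 0.195 and 0.654 ± 0.0108 TPM (SD, n = 3 each). Esr2 was below the 1 TPM minimum for the fit, and the two-sided exact permutation test of its means gave p = 0.1, the smallest value that 3 samples against 3 allow.

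Gper1 (chr5:139423151-139427800, plus strand) measured 0.973, 1.48 and 0.914 TPM in the WT samples and 1.14, 1.59 and 1.41 TPM in the KO samples, from 20 to 39 reads. The groups overlapped, WT 5 lying above KO 3 and KO 10. The log2 fold change was 0.17 with a 95% interval of -0.27 to 0.61 (limma adjusted p = 0.555). It was 0.29 without WT 5 and 0.10 without WT 8. Esr1 was thus the only one of the 3 receptor genes that reached 2 TPM in any sample.

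Target genes of the nuclear receptors often carry the oestrogen response element, an inverted repeat with the letters GGTCANNNTGACC. The 250 bases before the annotated starts were searched for it on both strands in RefSeq promoter sequences (GRCm38.p6), which matched 8 of the 10 genes with 11 windows. Since the repeat reads the same on both strands, 1 search covers both. None of the 11 windows held the whole repeat, which was present in 21 of 32851 windows of all genes (0.0639%). A single arm of the repeat, GGTCA or its complement TGACC, was present in 4 of the 11 windows, belonging to Greb1, Esr2 and Nrip1, against 35.2% of all windows. The windows below are those of Esr1, for the gene that was higher, and of its 4 target genes, printed from 5′ to 3′ with arms in capitals and with bases inside annotated exons left out. Greb1 has 2 windows, both shown. Esr1 and Nrip1 have a further window each, which is not printed and holds neither arm. That of Esr1 starts inside an annotated exon, so none of its bases were kept for printing.
Esr1, chr10:4709908-4710154, plus strand: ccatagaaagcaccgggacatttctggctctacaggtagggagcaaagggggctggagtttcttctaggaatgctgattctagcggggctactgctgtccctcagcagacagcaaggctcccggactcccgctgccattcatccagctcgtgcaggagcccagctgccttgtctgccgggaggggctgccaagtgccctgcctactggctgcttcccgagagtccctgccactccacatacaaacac
Pgr, chr9:8899583-8899832, plus strand: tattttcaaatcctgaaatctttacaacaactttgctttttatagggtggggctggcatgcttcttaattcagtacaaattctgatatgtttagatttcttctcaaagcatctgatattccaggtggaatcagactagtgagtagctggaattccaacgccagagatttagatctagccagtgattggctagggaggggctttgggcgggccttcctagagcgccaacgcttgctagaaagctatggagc
Greb1, chr12:16800887-16801136, minus strand: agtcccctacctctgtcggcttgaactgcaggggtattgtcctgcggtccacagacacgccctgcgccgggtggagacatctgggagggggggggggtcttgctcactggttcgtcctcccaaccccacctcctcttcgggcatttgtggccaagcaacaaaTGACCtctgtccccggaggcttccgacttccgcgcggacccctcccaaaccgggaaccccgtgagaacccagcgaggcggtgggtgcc
Greb1, chr12:16757242-16757489, minus strand: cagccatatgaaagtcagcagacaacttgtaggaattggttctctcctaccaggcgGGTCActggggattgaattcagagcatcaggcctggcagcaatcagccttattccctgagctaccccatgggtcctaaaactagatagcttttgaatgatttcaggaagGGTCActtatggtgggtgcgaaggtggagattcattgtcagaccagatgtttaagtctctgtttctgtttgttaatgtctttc
Igfbp4, chr11:99040994-99041243, plus strand: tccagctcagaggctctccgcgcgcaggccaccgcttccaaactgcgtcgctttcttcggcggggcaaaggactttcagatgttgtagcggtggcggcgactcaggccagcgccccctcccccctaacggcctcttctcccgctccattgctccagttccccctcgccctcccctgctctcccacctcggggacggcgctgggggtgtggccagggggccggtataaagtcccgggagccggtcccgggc
Nrip1, chr16:76373828-76374077, minus strand: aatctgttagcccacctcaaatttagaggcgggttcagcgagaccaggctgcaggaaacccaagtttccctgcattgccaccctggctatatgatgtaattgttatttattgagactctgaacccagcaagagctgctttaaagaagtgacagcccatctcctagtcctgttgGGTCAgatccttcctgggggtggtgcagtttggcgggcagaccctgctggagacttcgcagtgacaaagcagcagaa
In these sequences the first Greb1 window carries TGACC starting 88 bases before the end of the printed run, and the second carries GGTCA at 192 and at 83 bases before it. Nrip1 carries GGTCA starting 77 bases before the end of its run. The Esr1, Pgr and Igfbp4 windows hold neither arm. A match of letters is a description of the sequence only, and response elements outside these windows were not searched.

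Pgr and Greb1, which are widely used as readouts of oestrogen receptor α activity, stayed below 1 TPM in all 6 samples. Pgr, the progesterone receptor gene (chr9:8899833-8968611, plus strand), measured 0.0722, 0.200 and 0.210 TPM in the WT samples and 0.225, 0.181 and 0.131 TPM in the KO samples, from 5 to 17 reads. The groups overlapped, and WT 4 was the lowest sample. The means were 0.161 ± 0.0768 and 0.179 ± 0.0471 TPM (SD, n = 3 each, two-sided exact permutation p = 0.8).

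Greb1, a cofactor of the receptor that is itself induced by oestrogen (chr12:16670615-16800886, minus strand), measured 0.348, 0.226 and 0.143 TPM in the WT samples. In the KO samples it measured 0.330, 0.356 and 0.257 TPM, and reads ranged from 13 to 33 over all samples. WT 4 lay within the KO range, so the groups overlapped. The means were 0.239 ± 0.103 and 0.314 ± 0.0510 TPM (SD, n = 3 each, two-sided exact permutation p = 0.3). Its exons share 736 bases with the opposite-strand gene Gm48140, and the library kit named in the study's methods does not mark strand, so reads in that stretch are uncertain.

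The more highly expressed target genes also did not pass the test. Igfbp4, which encodes a secreted protein that binds insulin-like growth factors (chr11:99041244-99054392, plus strand), measured 28.8, 42.5 and 36.2 TPM in the WT samples and 21.9, 37.1 and 39.0 TPM in the KO samples. The groups overlapped, and KO 3 was the lowest of all 6 samples. The log2 fold change was -0.15 with a 95% interval of -0.64 to 0.33 (limma adjusted p = 0.632). Without KO 3 it was 0.10, so its sign rests on that sample.

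Nrip1 encodes RIP140, a corepressor that binds liganded receptors and is induced by oestrogen (chr16:76287400-76373827, minus strand). It measured 8.10, 7.75 and 6.53 TPM in the WT samples and 8.46, 8.87 and 8.46 TPM in the KO samples, from 705 to 985 reads. Every KO sample was above every WT sample, by a narrow margin over WT 4. The log2 fold change was 0.19 with a 95% interval of -0.09 to 0.46 (limma adjusted p = 0.287), and it was 0.10 without WT 8.

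The p160 coactivators bind liganded nuclear receptors and bring histone acetyltransferases to the promoter. None of the 3 passed both thresholds. The groups did not overlap for any of them, nor for 43.2% of all tested genes and 9 of the 19 tested coactivator genes. Ncoa1 (chr12:4247362-4477182, minus strand) measured 4.42, 5.32 and 4.59 TPM in the WT samples and 3.09, 4.20 and 3.62 TPM in the KO samples, a log2 fold change of -0.32 with a 95% interval of -0.65 to 0.01 (limma adjusted p = 0.139). Ncoa2 (chr1:13139105-13374083, minus strand) measured 7.49, 7.33 and 6.64 TPM in WT and 5.42, 6.51 and 5.76 TPM in KO, a log2 fold change of -0.24 with an interval of -0.52 to 0.04 (limma adjusted p = 0.179). For both genes every KO sample was below every WT sample, with KO 3 the lowest. The exons of Ncoa1 share 68 bases with those of the opposite-strand gene 4921501I09Rik, so reads in that stretch are uncertain.

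Ncoa3, also known as AIB1 or SRC-3 (chr2:165992636-166073242, plus strand), measured 14.9, 15.4 and 14.9 TPM in the WT samples and 16.3, 20.5 and 18.4 TPM in the KO samples. Every KO sample was above every WT sample, KO 7 the most. The log2 fold change was 0.27 with a 95% interval of 0.01 to 0.52 (limma unadjusted p = 0.0412, adjusted p = 0.110). Its exons share 154 bases with those of the opposite-strand gene Sulf2, which rose from a mean of 63.2 to 121 TPM (log2 fold change 0.93, limma adjusted p = 0.000365), so part of the Ncoa3 value is uncertain. The adjusted p of Ncoa3 depended on the processing, at 0.0046 with median-of-ratios scaling and 0.0045 with voom on the recovered reads, each with a log2 fold change under 0.5.

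Since Ncoa3 lay higher and Ncoa1 and Ncoa2 lower, the ratio of their TPM values within a sample, which no scaling between samples can change, separated the groups. The ratio of Ncoa3 to Ncoa1 was 3.17 ± 0.240 in WT and 5.09 ± 0.194 in KO (SD, n = 3 each), and the ratio of Ncoa3 to Ncoa2 was 2.11 ± 0.129 in WT and 3.12 ± 0.101 in KO. These ratios were formed after the directions of the coactivators were seen, which fix that the groups separate, so they are a description without a test. The other 2 of the 4 ratios computed, Ncoa2 to Ncoa1 and Ncoa3 to Nrip1, had overlapping groups.

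**Figure D3:**
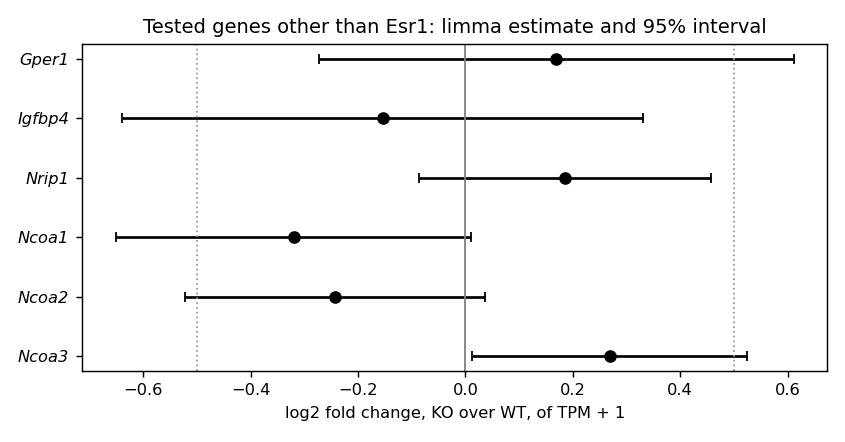
limma estimate and 95% interval of the log2 fold change (KO over WT, log2(TPM + 1) scale) for the 6 genes other than Esr1 that passed the filter, with dotted lines at the threshold of 0.5 in either direction. The estimates lie between -0.32 and 0.27.

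A total of 7 of the 10 genes passed the minimum of 1 TPM in either group mean, and Esr1, whose rise led to the choice of the genes, passed it through the KO group alone. A gene was called changed at a limma adjusted p under 0.005 and a log2 fold change beyond 0.5 in either direction, which 10.7% of 14799 tested genes met, 1.64% higher and 9.03% lower in KO. Esr1 was selected on this contrast and its place among the called genes is not counted. None of the other 6 genes was called by limma, with TPM or by voom on the recovered reads, and 1 of them, Ncoa3, had an unadjusted p under 0.05. None was called at an adjusted p under 0.05 either, which 21.3% of tested genes met together with the fold threshold. The KO and WT samples did not overlap for 4 of these 6 genes, 2 higher and 2 lower in KO, against 43.2% of all tested genes. Over all tested genes the median was -0.07 on the log2 scale. Without KO 7, the sample that stood apart by its sex markers, the log2 difference was 4.27 for Esr1, 0.11 for Gper1, -0.26 for Igfbp4 and 0.17 for Nrip1. In the same fit it was -0.41 for Ncoa1, -0.31 for Ncoa2 and 0.19 for Ncoa3, so every gene kept its direction.

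**Figure D4:**
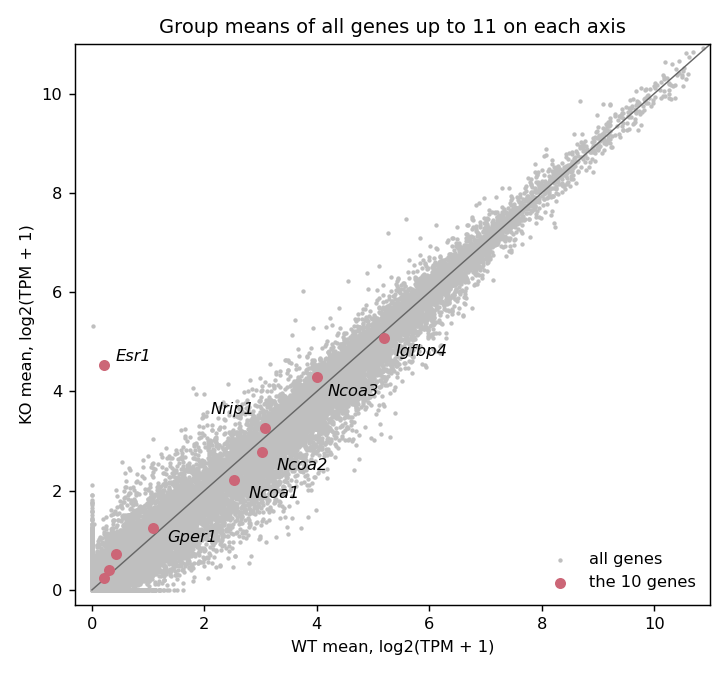
Group means of all genes as log2(mean TPM + 1), WT on the horizontal and KO on the vertical axis, up to 11 on each, with the 10 genes in red and a line of equal level. Esr1 lies far above the line, and the other 9 lie close to it.

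A wider list of 28 oestrogen receptor target genes, of which 26 were in the table and 19 were tested, had 1 called gene. It was higher in KO, against 1.64% called higher of all tested genes. The called gene was Ctsd, which encodes the lysosomal protease cathepsin D, at 215 ± 14.2 TPM in WT and 313 ± 8.27 TPM in KO (SD, n = 3 each, log2 fold change 0.54, limma adjusted p = 0.00253). Ctsd shares 808 exon bases with the same-strand gene Gm49369, and it was not called in 7 of 13 alternative settings, among them the omission of any single sample but WT 4 (adjusted p up to 0.0154, without WT 5). The median log2 fold change of the list was 0.13, and 5 of its 19 tested genes had groups that did not overlap, against 43.2% of all tested genes. Wnt4, a secreted signalling protein, measured 1.06 TPM in WT and 2.88 TPM in KO (log2 fold change 0.89, limma adjusted p = 0.0211). Igf1, the insulin-like growth factor gene, measured 1.60 and 3.08 TPM (log2 fold change 0.66, limma adjusted p = 0.0459). Both had groups that did not overlap, and at an adjusted p under 0.05 they and Ctsd made 3 of 19 genes called higher, against 4.69% of all tested genes called higher at that threshold. Among the genes that met neither threshold, Ccnd1 measured 103 TPM in WT and 123 TPM in KO, Xbp1 measured 108 and 109 TPM, and Myc measured 104 and 100.4 TPM. The exons of Ccnd1 share 1100 bases with those of the opposite-strand gene LTO1. Muc1 was below the filter and not tested, at 0.878 TPM in WT and 0.330 TPM in KO, from 5 to 19 reads. Its KO samples were all below its WT samples.

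Of 20 coactivator genes, 19 were tested, and Kat2b, a histone acetyltransferase also called PCAF, fell from 10.2 ± 1.40 to 4.05 ± 0.749 TPM (log2 fold change -1.16, limma adjusted p = 0.000868). Kat2b was not called with all genes tested (adjusted p = 0.0080), and 2 coactivator genes were called lower in 5 of the 13 alternative settings, the omission of KO 7 among them. Pelp1, a scaffold protein that binds the receptor, measured 49.2 TPM in WT and 32.2 TPM in KO, with groups that did not overlap (log2 fold change -0.60, limma adjusted p = 0.0057). Kmt2d, a histone methyltransferase, measured 14.4 TPM in WT and 21.1 TPM in KO, with groups that did not overlap (log2 fold change 0.52, limma adjusted p = 0.0086). A coactivator gene was called higher in 4 of the 13 settings. Of 13 corepressor genes in the table, 12 were tested, and Gps2, a subunit of the NCoR and SMRT complexes, fell from 27.0 ± 1.61 to 16.4 ± 2.23 TPM (log2 fold change -0.69, limma adjusted p = 0.00284). Gps2 was not called in 6 of 13 alternative settings, including without WT 5, WT 8, KO 3 or KO 10 (adjusted p up to 0.0135, without KO 10) and without a variance trend (0.0067). None of the 12 chaperone genes, which encode partners of the unliganded receptor such as Hsp90, was called, with log2 fold changes from -0.23 to 0.43. With median-of-ratios scaling, 1 chaperone gene was called higher. Of all tested genes, 10.7% were called.

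Of the 6 pioneer and partner factors, which open or hold receptor binding sites, 4 were tested. Among these, 1 was called higher, against 1.64% called higher of all tested genes. Gata3 rose from 1.42 ± 0.408 to 4.10 ± 1.03 TPM (log2 fold change 1.07, limma adjusted p = 0.0040), near the threshold, and it was not called without any one of the samples other than WT 4 (adjusted p up to 0.0157, without KO 3) or with median-of-ratios scaling (0.0071). Its exons share 155 bases with the antisense gene Gm13256 and 77 with the same-strand gene 9230102O04Rik. Foxa1, the pioneer factor most closely tied to oestrogen receptor α in breast cells, was at a mean of 0.277 TPM in WT and 0.389 TPM in KO and was not tested.

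Of the genes of oestrogen synthesis and metabolism, 8 were tested and 2 fell, against 9.03% called lower of all tested genes. Hsd17b4, a peroxisomal enzyme that also oxidises oestradiol, went from 51.4 ± 3.61 to 25.3 ± 2.51 TPM (log2 fold change -0.995, limma adjusted p = 0.000379). Hsd17b11, a short-chain dehydrogenase that acts on steroids, went from 13.6 ± 1.42 to 7.16 ± 0.465 TPM (log2 fold change -0.84, limma adjusted p = 0.00119), and was not called without KO 10 (adjusted p = 0.00561). Among the genes not called, Hsd17b7, an enzyme of oestrogen and cholesterol synthesis, had a log2 fold change of 0.43 (limma adjusted p = 0.0169) and Srd5a3, a polyprenol reductase, one of 0.36 (limma adjusted p = 0.0469), both with groups that did not overlap. Of the 35 other nuclear receptors in the table, 24 were tested and none was called, at log2 fold changes from -0.47 to 0.41. With median-of-ratios scaling, 1 of these receptors was called higher.

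Over all 8 lists without the 10 members, 91 genes were tested, of which 2 were called higher and 4 lower, against 1.64% called higher and 9.03% called lower of all tested genes. Their median log2 fold change was 0.04. With all 26898 genes tested, the calls of Ctsd, Kat2b, Gps2, Gata3 and Hsd17b11 were lost, at adjusted p values from 0.0071 to 0.0230, and Hsd17b4 was still called.

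None of the genes around Esr1 showed a difference of that size. Of 14 protein-coding genes within 1 Mb of the gene body, 10 were tested, none was called higher and 1 was called lower, against 1.64% called higher and 9.03% called lower of all tested genes. The nearest on the upstream side, Ccdc170, lies 49.4 kb away and measured 0.195, 0.0601 and 0.0556 TPM in the WT samples and 0.181, 0.191 and 0.177 TPM in the KO samples, from 2 to 7 reads. The nearest on the downstream side, Syne1, lies 15.3 kb away and measured 3.90, 4.02 and 3.59 TPM in WT and 3.70, 5.06 and 4.74 TPM in KO. For both neighbours the groups overlapped, and Syne1, which encodes a nuclear envelope protein, had a log2 fold change of 0.18 (limma adjusted p = 0.398). The gene called lower was Fbxo5, an inhibitor of the anaphase-promoting complex that lies 794 kb downstream, at 29.8 TPM in WT and 16.2 TPM in KO (log2 fold change -0.85, limma adjusted p = 0.00134). It was not called with all genes tested (adjusted p = 0.0079). Akap12, a scaffold protein gene 252 kb upstream, measured 285 TPM in WT and 186 TPM in KO with groups that did not overlap (log2 fold change -0.60, limma adjusted p = 0.0160), and 2 neighbours were called lower in 3 of the 13 alternative settings.

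**Figure D5:**
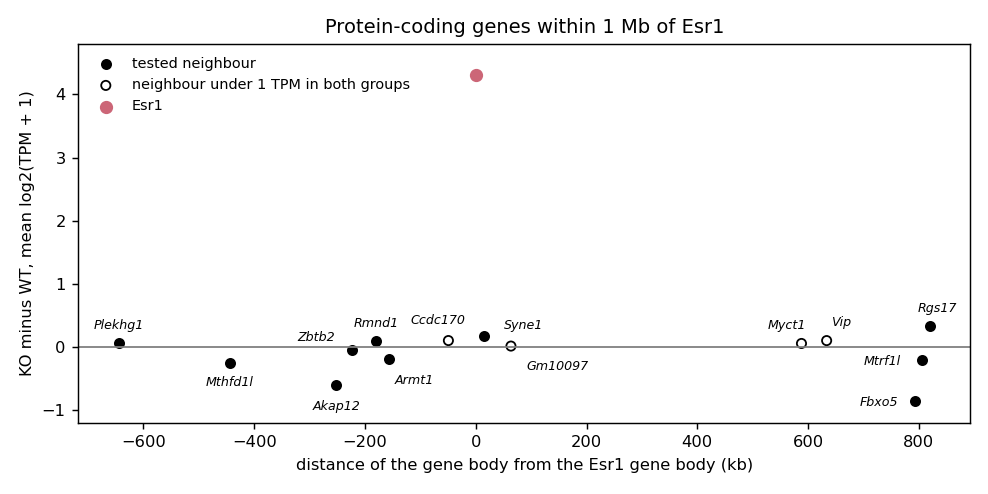
Difference of mean log2(TPM + 1), KO minus WT, for the 14 protein-coding genes within 1 Mb of Esr1 against the distance in kb of their gene bodies from that of Esr1 (filled points tested, open points under 1 TPM in both groups). Esr1 lies at 4.31, and its neighbours lie between -0.85 and 0.33.

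Few genes had values that went from near absence to a clear level as those of Esr1 did. A WT mean under 1 TPM together with a KO mean of at least 5 TPM was found for 4 genes, namely Esr1, Xist, Mir496a and Gm25197. Xist was high in KO 7 alone, and the other 2 are short genes of 79 and 126 bases with at most 8 reads in any sample, against at least 2219 reads for Esr1 in each KO sample.

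The 5 tested genes whose log2(TPM + 1) followed Esr1 most closely over the 6 samples were Hpcal1 (Pearson r = 0.999), Trim7 (0.998), Celf5 (0.998), Serf2 (0.997) and Klhl26 (0.997). All of them were higher in every KO sample than in every WT sample, with small spread within the groups, so these values largely repeat the separation of WT from KO. Hpcal1 measured 34.1, 35.5 and 35.6 TPM in WT and 71.4, 69.8 and 67.9 TPM in KO, a log2 fold change of 0.97 against 4.31 for Esr1. None of the 5 shared the near absence in WT to the extent of Esr1, the lowest being Celf5 with a highest WT value of 0.496 TPM.

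Bulk RNA cannot tell fewer cells of a type from less RNA per cell. Summed markers of several other cell types were higher in the KO samples, and their part in the level of Esr1 was not tested. The summed level of 8 macrophage markers was 36.9 to 44.4 TPM in WT and 80.5 to 162.4 TPM in KO, and the 6 markers tested were each higher in every KO sample than in every WT sample, with a median log2 fold change of 0.93. Of all tested genes, 43.2% had groups that did not overlap, in either direction. The other 2 macrophage markers, Ptprc and Itgam, were under 1 TPM in all samples, and Itgam shares 3450 exon bases with the same-strand gene Gm49368. Of the 6, 1 was called, Lyz2, a lysozyme gene (22.5 TPM in WT and 73.6 TPM in KO, log2 fold change 1.59, limma adjusted p = 0.00142), against 1.64% called higher of all tested genes. Lyz2 was not called with all genes tested (adjusted p = 0.0130). The summed level of 6 epithelial markers was 65.6 to 72.4 TPM in WT and 80.9 to 95.4 TPM in KO. A list of 6 reproductive tract and mammary markers summed to 3.11 to 6.46 TPM in WT and 7.45 to 10.3 TPM in KO. The sum is over 5 genes, as Csn2 was not in the table, and 3 of them were under 1 TPM in all samples. Of the 2 tested, 1 had groups that did not overlap, against 43.2% of all tested genes. Endothelial markers summed to 1.10 to 1.87 TPM in WT and 2.31 to 3.10 TPM in KO. No epithelial, endothelial, or reproductive tract and mammary marker was called. The summed markers of skeletal muscle (80.5 to 108 TPM in WT, 70.6 to 86.7 TPM in KO) and of neural cells (58.1 to 76.3 TPM in WT, 68.8 to 99.5 TPM in KO) overlapped between the groups, as did the 1 erythroid marker in the table. Summed fibroblast markers overlapped as well, at 7198 to 11232 TPM in WT and 8223 to 10833 TPM in KO.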

How the data were processed

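Sample titles gave the groups, WT 4, 5 and 8 and KO 3, 7 and 10. The authors aligned reads to mm10 with STAR and deposited expression as TPM for 26898 genes. The submitters' notes also name Bowtie 0.12.2, without a role. The counting program and its strand setting are not given in the sources used here. The authors also deposited 2 columns of their own comparison, a log2 fold change and an adjusted p-value, which were not used. Reads were recovered from TPM and the merged exon lengths of GENCODE M21, and 100.0% of values under 2000 reads were whole at a tolerance of 0.05. Of the gene IDs, 22 did not match that annotation.

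The 14799 genes whose WT or KO mean reached 1 TPM were fitted on log2(TPM + 1) by limma 3.58.1 (R 4.3.3) using a variance trend and Benjamini-Hochberg adjustment. The script was tested on simulated data. Members below the filter were compared by an exact permutation test. The study describes separate mice, 3 per group. Alternatives changed the pseudocount, filter, scaling, variance model, test, threshold and samples. Named genes are the members, Kansl1, called genes of each list (at most 4), the nearest neighbours of Esr1, the 5 genes most like it, Xist and Ddx3y. Wnt4, Igf1, Muc1, Kmt2d, Pelp1, Hsd17b7, Srd5a3, Akap12, Sulf2, Ptprc, Itgam and Lyz2 were singled out after their values were seen. So were Foxa1, Ccnd1, Xbp1, Myc, Nr1d1, Nr2f6, Nr3c1 and the genes that went from near absence to a clear level. The members, lists and tests were chosen with earlier results of these data known.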

Additional observations from a re-analysis of the deposited data

How the results depend on the processing

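No member other than Esr1 was called in any alternative in which it was tested. The log2 difference of Esr1, a description, ran from 4.27 to 7.04. The number of changed genes was 1579 (242 higher, 1337 lower), and it was 341 (55 higher, 286 lower) with all genes tested, 2582 (433 higher, 2149 lower) with voom on recovered reads and 3147 (694 higher, 2453 lower) at an adjusted p under 0.05. Median-of-ratios scaling of the samples gave 473 higher. It shifted the median of all tested genes by 0.092, and moved Ncoa3 to 0.37, Nrip1 to 0.28 and Ncoa2 to -0.15, none of which was called. The limma adjusted p was then 0.0046 for Ncoa3 and 0.0256 for Nrip1, and with voom 0.0045 for Ncoa3, 0.0063 for Ncoa2, 0.0221 for Ncoa1 and 0.0341 for Nrip1. Leaving out 1 sample at a time gave 758 to 1081 changed genes, 84 to 252 higher and 617 to 938 lower. Among the members, such omission turned the sign of Igfbp4 (-0.30 to 0.10, positive without KO 3) and of Pgr (difference of mean log2(TPM + 1) from -0.032 to 0.055, negative without WT 4 or without KO 3). The causes were not tested. The filter at 10 TPM gives no value for Gper1, Nrip1, Ncoa1 and Ncoa2. No paired analysis was possible because no replicate number occurs in both groups. Pgr, Greb1 and Esr2 rest on 4 to 33 reads per sample, which limits what difference could be seen in them.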
